A study of Homo sapiens with 12 samples.

Results

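The genes that encode the proteins of the cytosolic and the mitochondrial ribosome were examined in T-47D cells, an established human breast cancer line of luminal type, treated for 24 h with 1 µM palbociclib, a drug that blocks CDK4 and CDK6, or with its solvent DMSO. Members were all genes of the authors' deposited expression table with a symbol of the RPL, RPS, MRPL or MRPS series, together with RPLP0, RPLP1, RPLP2, RPSA and FAU. This gave 161 of 19460 genes, of which 84 were cytosolic (51 large and 33 small subunit) and 77 mitochondrial (49 large and 28 small subunit). Another 61 symbols start in the same way but did not meet the rule, and 42 of these are named as pseudogenes. Subunit was assigned by symbol, although MRPS18A and MRPS30 encode proteins that sit in the large subunit of the mitochondrial ribosome.

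Both treatment groups were unmodified T-47D cells in DMEM with fetal bovine serum, labelled WT for the RNA libraries, and the ATAC cultures also had penicillin and streptomycin. Poly(A) RNA sequencing and ATAC-seq, which reads how open chromatin is to the transposase Tn5, each had 3 libraries per treatment. The labels call the ATAC libraries biological replicates from separate dishes and the RNA libraries replicates only. All results are for 1 cell line at 1 dose and 1 time. The labels do not pair replicates across treatments and name no batch.

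The cytosolic ribosome reads nuclear-encoded messages, and its proteins are made in near-equal amounts for a large subunit, where peptide bonds form, and a small subunit, where the message is decoded. Most of its messages start with a terminal oligopyrimidine tract (TOP), a C followed by further C or T, through which the kinase mTOR and the protein LARP1 control their translation and stability. The mitochondrial ribosome makes the few proteins encoded by mitochondrial DNA. All of its own proteins are encoded in the nucleus, and many of them have no bacterial counterpart.

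The TOP letters separated the ribosomes in the sequence itself. A start window (RefSeq, GRCh38.p14) was at hand for 137 members, of which 136 were tested for RNA changes. None was at hand for RPL39L, RPL5 or RPS2, among others, so these were not searched for the tract, promoter words or peaks. A TOP-like start meant a C within 5 bases either side of the annotated start, followed by at least 4 C or T. Such a run could lie wholly before the start. A TOP-like start was found on the gene's strand in 52 of 67 cytosolic windows (77.6%). It was found in 15 of 69 mitochondrial windows (21.7%) and in 22.9% of the windows of all 10746 genes tested that had one. Large and small cytosolic subunit genes were alike in this, at 78.0% and 76.9%. The first windows below are of cytosolic genes among the 4 largest called RNA rises or falls of their subunit, with the tract in capitals. Their log2 changes ran from -0.16 (RPL35) to 0.29 (RPL3), called at a limma adjusted p under 0.05. Each window runs from 10 bases before the annotated start to 20 bases from it on, 5′ to 3′.
RPL3 (chr22:39319604-39319633, minus strand): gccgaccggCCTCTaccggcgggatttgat
RPL34 (chr4:108620566-108620595, plus strand): cttttttCTTCCTCTTCCggggacgttgtc
RPL4 (chr15:66504836-66504865, minus strand): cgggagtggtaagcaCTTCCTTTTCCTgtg
RPL10A (chr6:35468391-35468420, plus strand): aagacatgctagtCTCTTTTCCggttagcg
RPL35 (chr9:124861938-124861967, minus strand): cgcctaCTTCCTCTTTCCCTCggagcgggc
RPS27 (chr1:153990752-153990781, plus strand): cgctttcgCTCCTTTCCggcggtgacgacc
RPS6 (chr9:19380217-19380246, minus strand): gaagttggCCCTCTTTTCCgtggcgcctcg
RPSA (chr3:39406710-39406739, plus strand): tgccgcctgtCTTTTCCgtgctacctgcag
For RPL26L1, RPS27L and RPS4X, which also changed, the search found no such tract at the annotated start used. A tract at another start of these genes was not searched. For RPL26L1, on the plus strand, the start used (base 172958729) lies inside the gene, which begins at base 172954094. The windows are given for contrast.
RPL26L1 (chr5:172958719-172958748, plus strand): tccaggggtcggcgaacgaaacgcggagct
RPS27L (chr15:63157458-63157487, minus strand): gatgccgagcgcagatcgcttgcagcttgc
RPS4X (chrX:72277229-72277258, minus strand): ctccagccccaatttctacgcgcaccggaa
The mitochondrial windows below belong to the 4 genes of the large subunit with the largest falls (MRPL11, MRPL51, MRPL37 and MRPL17), to MRPS11, which fell most in the small subunit, and to MRPS21 and MRPL41, which rose. MRPL17, MRPS21 and MRPL41 hold a match, again in capitals. That of MRPL17, which fell, lies wholly before the annotated start. Those of MRPS21 and MRPL41, which rose, lie after it.
MRPL11 (chr11:66438829-66438858, minus strand): ctagcctaacgtgaggacccttgacctctg
MRPL51 (chr12:6493243-6493272, minus strand): cggtgcgcccacagctgcctgggtaaggcc
MRPL37 (chr1:54200157-54200186, plus strand): ggcgcccggtctcattcgttcccagcaggc
MRPL17 (chr11:6683321-6683350, minus strand): tctacCTTCCagtttccagttccggcctcc
MRPS11 (chr15:88467698-88467727, plus strand): gactggggtcaattcaagtcatgcaggctg
MRPS21 (chr1:150293851-150293880, plus strand): ttccggtagtgagaaCCCTTCCggtgggct
MRPL41 (chr9:137551869-137551898, plus strand): aatcggagccgCTCTTgctgcgacgcagcg

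RNA levels were given as FPKM, fragments scaled to gene length and library depth, so genes can be compared with each other. Cytosolic members had a median level of 791 FPKM and were among the most abundant messages of the cell. Of the 100 genes with the highest mean FPKM, 46 were cytosolic members. Mitochondrial members had a median of 49.3 FPKM and ranged from 7.02 (MRPL50) to 135 FPKM (MRPL41). Among cytosolic members, RPL41, the smallest ribosomal protein, was highest at 4528 FPKM, and in the small subunit RPS27 led at 2490.4 FPKM. At the low end stood RPL10L, a retrogene copy of RPL10, at 0.318 FPKM, which was under the floor of 0.5 FPKM and was not tested. The other 160 members passed that floor. Each library's cytosolic messages summed to 10.8% to 11.0% of all FPKM with DMSO and to 10.8% to 11.4% with palbociclib, so the groups overlapped. The mitochondrial messages summed to 0.592% to 0.604% with DMSO and to 0.520% to 0.549% with palbociclib, with no overlap. Part of this share depends on other genes: messages encoded by mitochondrial DNA took 25.1% to 26.6% of all FPKM with DMSO and 28.2% to 29.9% with palbociclib.

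The treatment was visible in the RNA libraries as loss of proliferation genes, with CCNE2 falling from 31.8 ± 0.568 to 1.61 ± 0.210 FPKM and MKI67 from 30.8 ± 1.27 to 1.62 ± 0.117 FPKM (limma adjusted p 1.75e-09 and 8.08e-10). RB1, which encodes the substrate of CDK4 and CDK6, fell from 25.6 ± 0.105 to 16.8 ± 0.445 FPKM (limma adjusted p 6.22e-06). Of 9 luminal epithelial markers, 8 rose (88.9%), against 20.9% of all genes. EPCAM was not called (-0.14 on the log2 scale, limma adjusted p 0.0544). The authors' deposited table lists 8 of the 9 markers higher and 1 lower. Their summed level was 5593 to 6118 FPKM with DMSO and 7516 to 8296 FPKM with palbociclib. Markers of other cell types were lower: the 3 fibroblast markers listed summed to 23.8 to 25.1 FPKM with DMSO and 24.6 to 26.8 FPKM with palbociclib. The 2 leukocyte markers listed summed to 1.00 to 1.59 and 1.01 to 1.22 FPKM, and the 1 myoepithelial marker listed to 8.91 to 9.17 and 8.51 to 9.12 FPKM. The defining genes PDGFRB, DCN, PTPRC, CD3E, PECAM1, CDH5, VWF, KRT14 and MYH11 were not in the table used. In bulk RNA, fewer cells with a message and less of it per cell cannot be told apart. Many ribosomal protein genes have near-identical processed pseudogenes, and how the authors' counting divided reads between copies is not given in the sources used here.

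Cytosolic ribosomal protein messages leaned upward and mitochondrial ones downward in the deposited values, while under either of 2 rescalings given further on the cytosolic small subunit had a median below 0. Of 83 cytosolic members tested, 41 rose, 7 fell and 35 were not called by limma at an adjusted p under 0.05, with a median log2 change of 0.10. Of 77 mitochondrial members, 4 rose, 26 fell and 47 were not called, with a median of -0.052. Over all 15869 genes tested, 20.9% rose and 22.9% fell, and the median log2 change was 0.0023. Set against these shares, 49.4% of cytosolic members rose and 8.43% fell, and 5.19% of mitochondrial members rose and 33.8% fell. These counts moved with the scaling. With all libraries set to a common total, 16 cytosolic members rose and 12 fell, and 1 mitochondrial member rose and 44 fell, against 14.1% and 30.6% of all genes. After quantile normalization 23 cytosolic members rose and 14 fell, and 13 mitochondrial members rose and 20 fell, against 28.9% and 18.0% of all genes. Abundant genes as a whole also leaned upward: of 795 other genes with a mean of at least 100 FPKM, 39.6% rose and 27.7% fell, with a median of 0.047. The changes were small. Members with a called log2 change of at most -0.5 were RPL39L and MRPL11, against 7.7% of all genes, and no member reached 0.5 upward by limma, against 3.38% of all genes, the largest rise being 0.29 (RPL3). With any 1 library left out, between 26 and 47 cytosolic members rose, against 17.0% to 19.3% of all genes. The cytosolic count fell to 26 without DMSO replicate 1, without DMSO replicate 2 or without palbociclib replicate 2. In those 3 fits 18.1%, 17.5% and 17.0% of all genes rose.

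The authors' deposited table, made with DESeq2 from the same libraries, lists 44 cytosolic members higher and 7 lower, and 4 mitochondrial members higher and 24 lower, with 0.05 as the limit of its adjusted p. Across its genes, 17.9% were higher and 20.3% lower. Counting libraries rather than tests, every palbociclib library lay above every DMSO library for 47 cytosolic and 8 mitochondrial members, against 26.5% of all genes. Every palbociclib library lay below for 8 cytosolic and 32 mitochondrial members, against 28.2% of all genes.

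**Figure D1:**
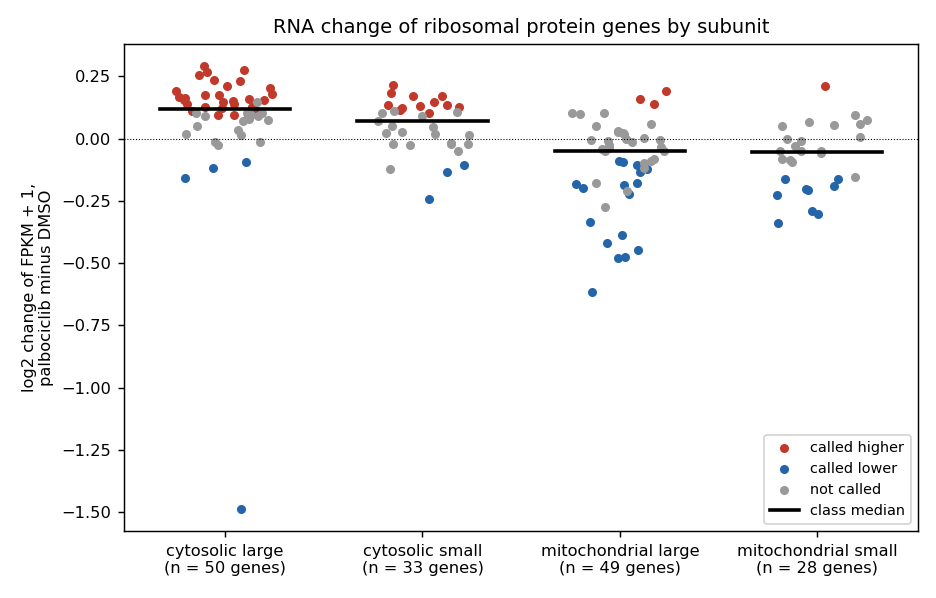
Each point is 1 gene, placed by subunit class on the x axis and by its log2 change of FPKM + 1, palbociclib minus DMSO, on the y axis; red and blue points passed the limma threshold, and bars are class medians. Called rises made up 29 of 50 genes (58%) in the cytosolic large class, against 20.9% of all genes. Called falls made up 17 of 49 (34.7%) in the mitochondrial large and 9 of 28 (32.1%) in the mitochondrial small class, against 22.9%. RPL39L lies alone near -1.49. Under quantile normalization or a common total the cytosolic small median turns negative.

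Between subunits, the large cytosolic subunit held most of the rises: 29 of its 50 tested genes rose and 4 fell (median 0.12), against 12 and 3 of 33 in the small subunit (median 0.070). Over all genes, 20.9% rose and 22.9% fell. With a common total there were 12 rises and 6 falls in the large subunit and 4 and 6 in the small. The shares over all genes were then 14.1% and 30.6%. After quantile normalization there were 15 rises and 5 falls in the large subunit and 8 and 9 in the small, against 28.9% and 18.0%. The median log2 change of the large subunit lay 0.048 above that of the small as deposited. Without DMSO replicate 2 this difference was only 0.0084, and with any other single library left out it was 0.042 to 0.052. In the mitochondrial ribosome both subunits held more falls than rises, with 3 rises and 17 falls of 49 in the large subunit (median -0.052) and 1 rise and 9 falls of 28 in the small subunit (median -0.055). Under the common total falls outnumbered rises in both (26 and 0, 18 and 1), while 30.6% of all genes fell and 14.1% rose. After quantile normalization the large subunit had 13 falls and 7 rises and the small a near-equal 7 and 6. Of all genes, 18.0% then fell and 28.9% rose. Summed levels of the cytosolic small subunit were 58.8%, 59.6% and 59.4% of those of the large subunit in DMSO replicates 1 to 3. With palbociclib they were 57.48%, 57.48% and 57.7%, below every DMSO library. The same ratio in the mitochondrial ribosome overlapped between groups, at 52.8% ± 0.427 with DMSO and 52.8% ± 0.706 with palbociclib (SD, n = 3 each). Summed mitochondrial members relative to summed cytosolic members went from 5.48% ± 0.0816 to 4.83% ± 0.0885 (SD, n = 3 each). The DMSO libraries spanned 5.41% to 5.57% and the palbociclib libraries 4.74% to 4.92%. A ratio within a library does not change with a common scale factor.

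Class medians per library, measured from the DMSO mean on the log2 scale, showed the same order. Cytosolic large subunit genes had medians of -0.028, -0.0097 and 0.034 in DMSO replicates 1 to 3 and of 0.11, 0.15 and 0.097 with palbociclib. For the cytosolic small subunit the groups touched: DMSO replicate 3 stood at 0.034, above palbociclib replicate 3 at 0.032. All palbociclib medians of both mitochondrial subunits were negative, from -0.033 to -0.11, and lay below every DMSO library.

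**Figure D2:**
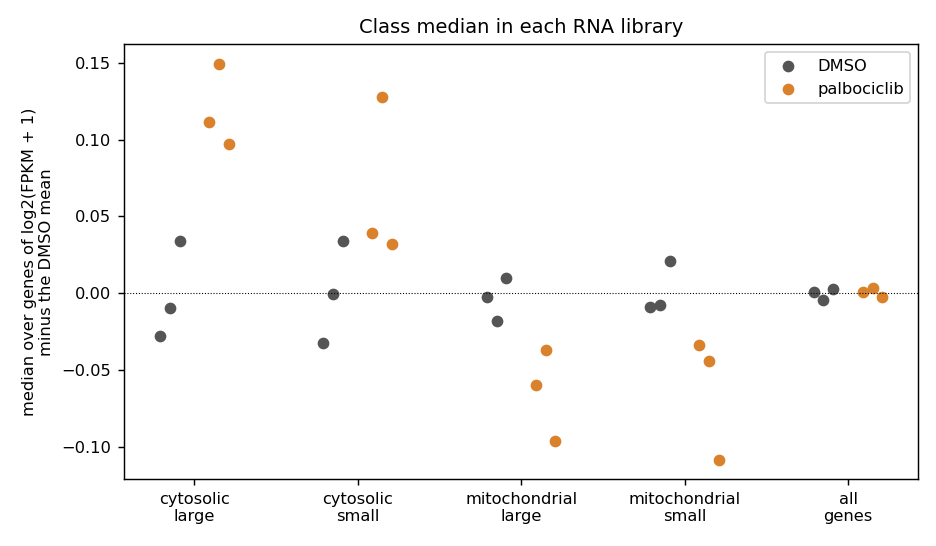
For each subunit class and for all genes (x axis), each point is 1 RNA library and gives the median over genes of log2(FPKM + 1) minus the DMSO mean (y axis), in grey for DMSO and orange for palbociclib. The groups separate in 3 classes and touch in the cytosolic small class, while all-gene medians stay within 0.0041 of 0.

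How far the cytosolic median was from 0 depended on the scaling. With all libraries set to a common total, the cytosolic median was 0.025, the mitochondrial -0.13 and that of all genes -0.065. Quantile normalization gave 0.024, -0.0051 and 0.057, so that the cytosolic median then lay 0.033 below that of all genes, where it lay 0.10 above it in the values as deposited. The small cytosolic subunit turned negative under both (-0.0084 and -0.034), and the large subunit stayed positive at 0.040 and 0.036. The mitochondrial median was below that of all genes under all 3 scalings, and the cytosolic median was above the mitochondrial by 0.15, 0.16 and 0.029. Over all genes, the share of rises among calls was 47.7% as deposited, 31.5% with a common total and 61.6% after quantile normalization.

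**Figure D3:**
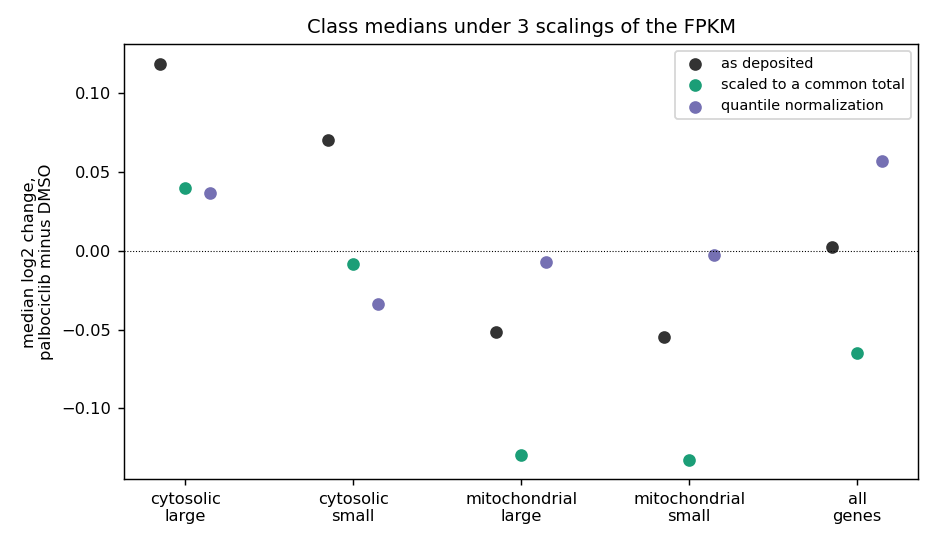
Median log2 change, palbociclib minus DMSO (y axis), of each subunit class and of all genes (x axis) is drawn for the deposited FPKM and for 2 rescalings. The cytosolic small median is 0.070 as deposited and negative under both rescalings, and the mitochondrial medians stay negative in all 3.

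Among the large subunit proteins that rose, the greatest change was that of RPL3, a core protein next to the site of peptide bond formation. Its level was 621, 633 and 656 FPKM in DMSO replicates 1 to 3 and 774, 802 and 761 FPKM with palbociclib. This is a log2 change of 0.29 (SE 0.034, limma adjusted p 0.000224), and the groups were far apart. RPL34 went from 374, 377 and 397 FPKM to 459, 456 and 472 FPKM, with a log2 change of 0.27 (limma adjusted p 0.000255). RPL4, which helps line the exit tunnel of the growing chain, read 1295, 1243 and 1122 FPKM with DMSO and 1442, 1491 and 1467 FPKM with palbociclib. DMSO replicate 3 was lowest for RPL4, and the log2 change was 0.27 (limma adjusted p 0.0034). RPL10A, the protein of the L1 stalk near the exit site of tRNA, went from 629 ± 8.71 to 749.7 ± 19.7 FPKM (limma adjusted p 0.000278). All 4 have a TOP-like start in the windows printed above. For these genes the rise also passed the threshold in all 14 alternatives of the RNA fit.

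In the factor-binding stalk and the 5S particle the members differed. RPLP1, a stalk protein that recruits the GTPase factors of translation, was at 487, 462 and 488 FPKM with DMSO and at 529.5, 585 and 503 FPKM with palbociclib (0.17 on the log2 scale, limma adjusted p 0.0356). Its call was lost in 10 of 14 alternatives, up to an adjusted p of 0.199. Its partner RPLP2 stood at 562 ± 10.7 and 558 ± 26.4 FPKM (limma adjusted p 0.823), and the stalk base RPLP0 at 1445 ± 15.02 and 1433 ± 36.3 FPKM (limma adjusted p 0.779). RPL5 and RPL11 carry the 5S ribosomal RNA into the large subunit and, when free, bind the ubiquitin ligase MDM2. RPL5 rose from 511 ± 20.2 to 569 ± 7.86 FPKM (0.15 on the log2 scale, limma adjusted p 0.00758). RPL11 rose from 669.7 ± 18.2 to 725 ± 13.9 FPKM (0.11 on the log2 scale, limma adjusted p 0.0209), a call that was lost in 6 of 14 alternatives, among them both rescalings, with limma adjusted p up to 0.345. RPL41, the most abundant member, was at 4569 ± 68.4 and 4487 ± 95.1 FPKM (limma adjusted p 0.587).

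Of the 4 large subunit genes that fell, RPL39L fell most and stood apart from all other members. RPL39L is a paralog of RPL39, a small protein of the exit tunnel, and is best known from the testis. It was at 48.3, 53.2 and 55.4 FPKM with DMSO and at 17.2, 18.4 and 18.4 FPKM with palbociclib. The log2 change was -1.49 (SE 0.056, limma adjusted p 1.64e-07), and the authors' deposited table gives -1.54. RPL35, which sits at the tunnel exit, fell from 1474.5 ± 5.84 to 1322 ± 45.0 FPKM (-0.16 on the log2 scale, limma adjusted p 0.00568) and its window holds a tract as well. RPL14 fell from 593 ± 4.86 to 556 ± 12.3 FPKM (-0.093 on the log2 scale, limma adjusted p 0.0309) and RPL26L1 from 71.5 ± 0.758 to 65.8 ± 1.01 FPKM (-0.12 on the log2 scale, limma adjusted p 0.0121). The call of RPL14 was lost in 7 of 14 alternatives and that of RPL26L1 in 2.

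Small subunit genes that rose were led by RPS4X, which was at 282, 279.6 and 286 FPKM with DMSO and at 331, 337 and 319 FPKM with palbociclib (0.22 on the log2 scale, limma adjusted p 0.000657). RPS6, the substrate of the S6 kinases downstream of mTOR, went from 754, 753 and 799 FPKM to 863, 883.5 and 868 FPKM (0.18 on the log2 scale, limma adjusted p 0.00262). RPS13 went from 567 ± 3.20 to 639 ± 11.6 FPKM (0.17 on the log2 scale, limma adjusted p 0.00139). RPS27, the most abundant of the subunit, was at 2344 ± 56.4 and 2637 ± 113 FPKM (0.17 on the log2 scale, limma adjusted p 0.0103), but after quantile normalization its change was -0.13 with a limma adjusted p of 0.00263. RPS4X, RPS6 and RPS13 passed the threshold in all 14 alternatives.

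Falls in the small subunit were those of RPS27L, RPS2 and RPSA. RPS27L, a paralog of RPS27, read 82.8, 85.4 and 91.9 FPKM with DMSO and 72.6, 72.3 and 74.2 FPKM with palbociclib (-0.24 on the log2 scale, limma adjusted p 0.00184). RPS2, near the entry of the message, fell from 1136 ± 43.6 to 1035 ± 14.7 FPKM (-0.13 on the log2 scale, limma adjusted p 0.0165). RPSA, also described as a laminin receptor precursor, fell from 712 ± 8.19 to 661 ± 9.68 FPKM (-0.11 on the log2 scale, limma adjusted p 0.0149). The calls of RPS2 and RPSA were each lost in 3 of 14 alternatives. RPS3, which contacts the message at its entry, was at 1235 ± 26.5 and 1194 ± 16.7 FPKM (limma adjusted p 0.234). The ubiquitin fusion gene RPS27A (517 ± 31.7 and 554 ± 23.6 FPKM) and the ubiquitin-like fusion gene FAU (621 ± 3.20 and 612 ± 31.8 FPKM) were not called, with limma adjusted p of 0.136 and 0.708.

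In the mitochondrial large subunit the greatest fall was that of MRPL11, the counterpart of the bacterial L11 protein at the base of the factor-binding stalk. MRPL11 was at 71.3, 71.0 and 69.3 FPKM with DMSO and at 47.2, 47.3 and 42.6 FPKM with palbociclib. The log2 change was -0.62 (SE 0.045, limma adjusted p 1.28e-05). MRPL37 went from 55.5, 55.9 and 57.2 FPKM to 40.1, 41.1 and 39.3 FPKM (-0.48 on the log2 scale, limma adjusted p 8.92e-06). MRPL51 went from 79.0, 80.5 and 85.1 FPKM to 53.9, 62.7 and 58.2 FPKM (-0.48 on the log2 scale, limma adjusted p 0.000212). Both encode proteins without a bacterial counterpart. MRPL17 fell from 31.3 ± 1.99 to 22.7 ± 1.30 FPKM (-0.45 on the log2 scale, limma adjusted p 0.000394). MRPL12, of the stalk that binds elongation factors, fell from 115 ± 1.58 to 101 ± 3.35 FPKM (-0.19 on the log2 scale, limma adjusted p 0.00228). These 5 genes were called lower in all 14 alternatives.

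The 3 rises in that subunit were small and less stable. MRPL41, its most abundant member, was at 128, 124 and 125 FPKM with DMSO and at 149.7, 153 and 129.8 FPKM with palbociclib (0.19 on the log2 scale, limma adjusted p 0.027), where palbociclib replicate 3 lay near the DMSO libraries. MRPL44 (0.16 on the log2 scale, limma adjusted p 0.0467) and MRPL28 (0.14 on the log2 scale, limma adjusted p 0.0177) were the others. The calls were lost in 7, 8 and 4 of 14 alternatives. The rises in the subunit numbered 7 without palbociclib replicate 3, 1 without DMSO replicate 1 and 0 without DMSO replicate 2, palbociclib replicate 1 or palbociclib replicate 2. MRPL45, which tethers the ribosome to the inner membrane, was at 68.1 ± 1.104 and 71.1 ± 4.06 FPKM (limma adjusted p 0.304). MRPL30, named after its values were seen, was uneven, with 24.3, 35.0 and 37.9 FPKM in palbociclib replicates 1 to 3 against 37.9 to 40.2 FPKM with DMSO, and was not called.

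In the mitochondrial small subunit, MRPS11 fell from 61.6, 65.2 and 62.0 FPKM to 47.3, 50.9 and 50.6 FPKM (-0.34 on the log2 scale, limma adjusted p 0.00027). MRPS25 fell from 41.2 ± 1.79 to 33.2 ± 1.12 FPKM (-0.30 on the log2 scale, limma adjusted p 0.000705) and MRPS16 from 117 ± 8.11 to 95.0 ± 4.40 FPKM (-0.29 on the log2 scale, limma adjusted p 0.00305). MRPS2 went from 32.4 ± 1.29 to 27.6 ± 0.902 FPKM (-0.22 on the log2 scale, limma adjusted p 0.00326), and MRPS24, the most abundant of the subunit, from 123 ± 2.28 to 109.9 ± 4.73 FPKM (-0.16 on the log2 scale, limma adjusted p 0.00796). The single rise was that of MRPS21, from 47.7, 43.3 and 44.7 FPKM to 54.6, 51.2 and 51.5 FPKM (0.21 on the log2 scale, limma adjusted p 0.00569). All 6 kept their call in the 14 alternatives. The decoding-site proteins MRPS12 (18.5 ± 1.15 and 18.5 ± 0.850 FPKM) and MRPS5 (18.9 ± 0.267 and 19.7 ± 1.31 FPKM) were not called, with limma adjusted p of 0.993 and 0.448.

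**Figure D4:**
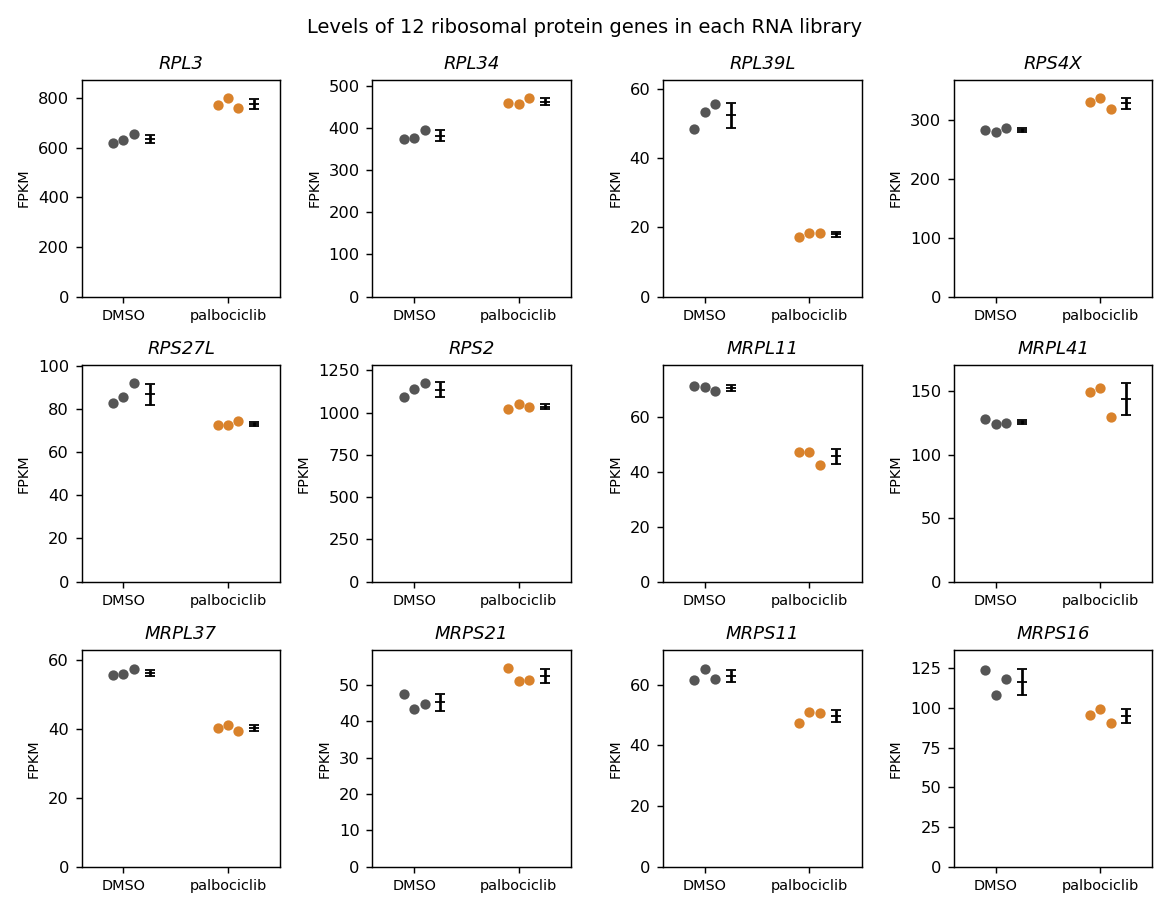
Each panel is 1 gene with FPKM on the y axis, starting at 0; points are single RNA libraries, grey for DMSO and orange for palbociclib, and the bar beside them is the mean with its SD (n = 3). The groups do not overlap in any of the 12 panels, and for MRPL41 they come close, with palbociclib replicate 3 at 129.8 FPKM and the highest DMSO library at 128 FPKM.

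Several ribosomal proteins exist as a parent gene and a paralog. The ratio of their levels within a library does not change with a common scale factor. Quantile normalization can change it, and the ratios were not computed under that setting. Of 8 such ratios, RPL39L to RPL39 moved most, from 4.14%, 4.38% and 4.37% in DMSO replicates 1 to 3 to 1.29%, 1.37% and 1.41% with palbociclib. RPL39 itself was at 1217 ± 50.6 and 1328.5 ± 18.2 FPKM (0.13 on the log2 scale, limma adjusted p 0.0237), a change that turned to -0.022 under quantile normalization (limma adjusted p 0.475). Its call was lost in another 6 of the 14 alternatives. RPS27L to RPS27 went from 3.57%, 3.71% and 3.82% to 2.697%, 2.67% and 2.96%. RPL26L1 to RPL26 went from 7.28%, 7.01% and 6.84% to 5.97%, 5.46% and 5.98%. In these 3 pairs the groups did not overlap, with an exact permutation p of 0.1, two-sided, which is the smallest that 3 against 3 libraries can give and which was 0.267 after Benjamini-Hochberg adjustment over the 8 pairs. The paralog was the lesser copy in each of them, and its share fell.

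The other ratios overlapped between groups. RPL22L1 to RPL22 was 12.6% ± 0.593 and 13.4% ± 0.721, with both genes higher with the drug (limma adjusted p 0.00175 and 0.0463). The call of RPL22 was lost in 8 of 14 alternatives, with a limma adjusted p of up to 0.217. RPL7L1 to RPL7 was 4.58% ± 0.116 and 4.602% ± 0.101. RPL36AL exceeded RPL36A in every library, at 180.2% ± 11.9 with DMSO and 169% ± 12.7 with palbociclib. Of the S18 proteins of the mitochondrial ribosome, MRPS18A was at 32.6% ± 1.23 and 31.5% ± 0.878 of MRPS18B. MRPS18C was at 30.5% ± 1.52 and 27.8% ± 1.22 of it. Exact permutation p over these 5 pairs ranged from 0.2 to 0.9, two-sided.

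**Figure D5:**
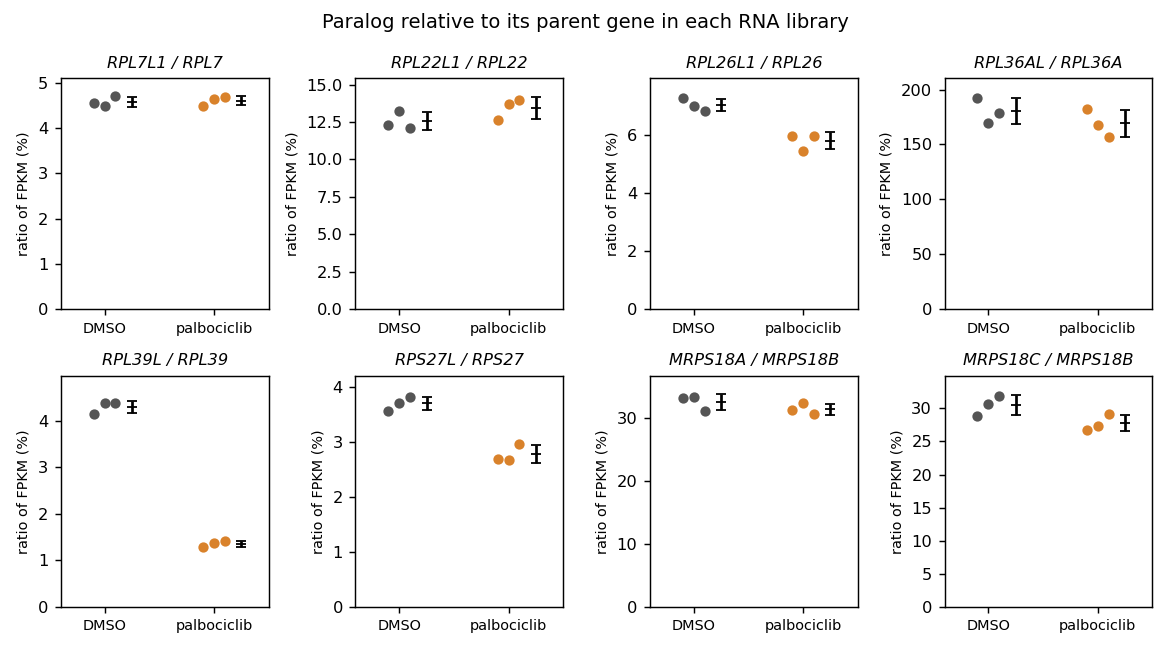
Each panel gives the FPKM of a paralog as a percentage of its parent gene (y axis, from 0) in the 6 RNA libraries, grey for DMSO and orange for palbociclib, with the mean and SD (n = 3) beside the points. RPL39L to RPL39 drops from about 4.30% to 1.35%, and the groups overlap in 5 of the 8 panels.

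The TOP letters were then set beside the changes as a description. Cytosolic genes with the tract had a median log2 change of 0.11, with 29 rises and 3 falls among 52. Those without it had 0.10, with 6 rises and 2 falls among 15. Mitochondrial genes with the tract had a median of 0.051, with 3 rises and 3 falls among 15, and those without it -0.087, with 1 rise and 19 falls among 54. Among other genes, 22.5% of 2389 with the tract rose and 24.7% fell, and 21.4% of 8221 without it rose and 26.2% fell. A window without the tract shows only that none lay at the annotated start used, which can lie inside the gene. For RPL6, on the minus strand, that start was base 112411442 while the gene runs to base 112418835. The near-equal cytosolic medians therefore cannot show whether the tract matters. No test of the difference was run.

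Further promoter words were searched on both strands from 250 bases before the start to 50 bases from it on, in the same genes. The word CCGGAAGT, bound by ETS-type factors such as GABP, was in 16.4% of cytosolic and 15.9% of mitochondrial windows against 9.06% of all. The SP1-type word GGGCGG was in 53.7% and 60.9% against 70.2%, and CCAAT in 31.3% and 29.0% against 37.1%. TATAAA was in 8.96% and 2.90% against 5.30%. The word TTTGAA was in 8.96% and 5.80% against 9.50%, and the NRF1-type word GCGCATGC in 4.48% and 8.70% against 5.75%. A match is a run of letters and no evidence of a bound factor.

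Other messages of the translation apparatus were read beside the members. Among 17 further TOP mRNAs, 10 rose (58.8%) and 5 fell (29.4%), with a median of 0.12, against 20.9% and 22.9% of all genes. Of the 795 genes outside the members with a mean of at least 100 FPKM, 39.6% rose and 27.7% fell. The 17 messages all passed that floor, and their counts under the 2 rescalings were not made. The largest rises were those of the elongation factor genes EEF2, from 530.4 ± 3.56 to 694 ± 31.2 FPKM, and EEF1A1, from 3212 ± 37.8 to 3942 ± 115 FPKM (limma adjusted p 6.45e-05 and 0.000278). The elongation factor genes of the list did not all move one way. Chosen after their values were seen, EEF1G also rose (1317 ± 7.26 and 1483 ± 31.3 FPKM, limma adjusted p 0.00214), whereas EEF1B2 (184 ± 10.6 and 161 ± 2.22 FPKM) and EEF1D (258 ± 2.38 and 231 ± 5.77 FPKM) fell, with limma adjusted p of 0.00749 and 0.00253. The falls included HNRNPA1, an RNA-binding splicing regulator, from 651 ± 28.3 to 483 ± 3.92 FPKM (limma adjusted p 2.97e-05). Among 5 chaperones of single ribosomal proteins, 2 fell (40%), against 22.9% of all genes. These were TSR2 (25.3 ± 0.214 to 22.2 ± 0.901 FPKM, limma adjusted p 0.00675) and GRWD1 (13.5 ± 1.11 to 11.7 ± 0.228 FPKM, limma adjusted p 0.0376).

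Genes around the mitochondrial ribosome did not all follow its proteins. Among 19 assembly factors, 6 fell (31.6%) and 1 rose (5.26%), with a median of -0.068, against 22.9% and 20.9% of all genes. MRM2, an rRNA methyltransferase, went from 34.6 ± 0.558 to 25.1 ± 0.394 FPKM (limma adjusted p 1.70e-05), MPV17L2 from 3.88 ± 0.0745 to 3.14 ± 0.386 FPKM (limma adjusted p 0.0396), and MTG2, a GTPase, rose from 34.3 ± 1.24 to 39.5 ± 1.11 FPKM (limma adjusted p 0.00423). Among 14 translation factors of mitochondria, 2 rose (14.3%) and 12 were not called, against 20.9% of all genes higher and 22.9% lower. The initiation factor gene MTIF3 rose from 27.8 ± 1.09 to 34.8 ± 1.86 FPKM (limma adjusted p 0.001) and the recycling factor gene MRRF from 45.9 ± 1.35 to 51.4 ± 0.106 FPKM (limma adjusted p 0.00512). No factor of this list fell by limma or in the authors' deposited table, and 1 was lower at an unadjusted p under 0.05. Of 5 ribosomal proteins under other names, GADD45GIP1 fell from 15.2 ± 1.25 to 13.0 ± 0.947 FPKM (limma adjusted p 0.0433) and the other 4 were not called. This is 20% of the list lower, against 22.9% of all genes.

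Among 21 tested regulators of cytosolic translation, 4 rose (19.05%) and 5 fell (23.8%), shares near the 20.9% and 22.9% of all genes. EIF4EBP2, a repressor of cap binding, fell from 27.4 ± 0.114 to 17.2 ± 0.315 FPKM (limma adjusted p 2.30e-06). DEPTOR, an inhibitor of mTOR, rose from 14.3 ± 0.763 to 20.6 ± 0.870 FPKM (limma adjusted p 0.000115).

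Few ATAC peaks at the starts of these genes passed the threshold, while most cytosolic peaks had a negative log2 change. ATAC counts in peaks summed to between 12830062 and 18250496 per library, and the values below are counts scaled to library depth (CPM). Within 1000 bases of a start, 33 of the 68 cytosolic genes with a window (48.5%) had a peak, and 62.3% of 69 mitochondrial genes did, against 41.6% of all genes tested in RNA. By the edgeR quasi-likelihood test, 0 of 33 cytosolic peaks were more open and 1 was less open with palbociclib, while 1 and 4 of 43 mitochondrial peaks were. Over all 38121 peaks, 5.41% were more open and 6.46% less open. Over the 5823 peaks near any start, 87 (1.49%) were more open and 649 (11.1%) less open, against 0% and 3.03% of cytosolic and 2.33% and 9.302% of mitochondrial peaks. At an unadjusted p under 0.05, 1 cytosolic peak was higher and 4 were lower (3.03% and 12.1%), and 2 mitochondrial peaks were higher and 7 lower (4.65% and 16.3%). The shares at that limit were 4.499% and 20.95% for all peaks near a start, and 12.6% and 12.8% for all peaks. DESeq2 called 0 cytosolic peaks higher and 1 lower. The median log2 change was -0.070 at cytosolic and -0.014 at mitochondrial starts, against -0.045 for all peaks near a start, and with library totals in place of TMM the mitochondrial median was 0.011. The log2 change was negative at 28 of 33 cytosolic peaks (84.8%), including 16 of 16 of the small subunit, and at 27 of 43 mitochondrial peaks (62.8%), against 3887 of the 5823 peaks near a start (66.8%). Every palbociclib library lay below every DMSO library at 7 cytosolic peaks and above at 1, against 1344 and 365 of the 5823.

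Called peaks did not always move with the RNA. At the start of MRPL27 the peak (chr17:50372687-50373522) went from 63.2 ± 0.499 to 48.8 ± 2.53 CPM (-0.37 on the log2 scale, edgeR adjusted p 2.07e-05), and MRPL27 RNA also fell, from 74.2 ± 1.25 to 65.6 ± 3.34 FPKM (limma adjusted p 0.00862). At MRPL11 (chr11:66438504-66439386) both fell as well, with the peak going from 129 ± 8.25 to 113 ± 2.24 CPM (-0.19 on the log2 scale, edgeR adjusted p 0.00872). At RPS13 (chr11:17077370-17078297) the peak fell from 84.7 ± 2.85 to 71.3 ± 1.85 CPM (-0.25 on the log2 scale, edgeR adjusted p 0.00152) while its RNA rose. MRPL24 (-0.17 on the log2 scale, edgeR adjusted p 0.00862) and MRPL34 (-0.51 on the log2 scale, edgeR adjusted p 0.0109) had less open peaks without a called change in RNA. The peak at MRPS22 (chr3:139343738-139344621) was more open, from 47.1 ± 1.72 to 54.0 ± 1.82 CPM (0.20 on the log2 scale, edgeR adjusted p 0.0367), and its RNA was at 52.6 ± 1.47 and 52.3 ± 2.05 FPKM. With DESeq2, and with DMSO replicate 1, 2 or 3 or palbociclib replicate 1 left out in turn, 0 mitochondrial peaks were called more open, so this call was lost each time.

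Upstream sequence of 4 of these genes is shown because their peaks changed, 120 bases up to the start in RefSeq (GRCh38.p14), with matches to the searched words in capitals on either strand.
RPS13 (chr11:17077668-17077787, minus strand): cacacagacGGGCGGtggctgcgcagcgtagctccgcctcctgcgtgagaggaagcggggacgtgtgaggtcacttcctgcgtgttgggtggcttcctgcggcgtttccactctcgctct
MRPL11 (chr11:66438849-66438968, minus strand): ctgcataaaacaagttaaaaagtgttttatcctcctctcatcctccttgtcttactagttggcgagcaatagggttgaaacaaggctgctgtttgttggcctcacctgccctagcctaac
MRPL27 (chr17:50373185-50373304, minus strand): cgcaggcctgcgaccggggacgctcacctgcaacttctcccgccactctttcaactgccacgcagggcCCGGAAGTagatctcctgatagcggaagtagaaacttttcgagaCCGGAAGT
MRPS22 (chr3:139343874-139343993, plus strand): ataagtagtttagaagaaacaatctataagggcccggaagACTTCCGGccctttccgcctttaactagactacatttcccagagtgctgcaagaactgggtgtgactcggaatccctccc
MRPL27 and MRPS22 hold the ETS-type word, MRPL27 at both capital stretches and MRPS22 on the opposite strand, while their peaks moved in opposite directions. RPS13 holds GGGCGG, and in the stretch of MRPL11 the search found none of the 6 words.

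Splicing of the members was read from 249 events in 98 genes, out of 1209 listed for them, with at least 20 reads per library on average and a minor form of at least 5%. No event passed an adjusted p of 0.05 by edgeR, against 0.35% of all 37445 events tested. At an unadjusted p under 0.05 there were 39 member events (15.7%), against 3194 of all events tested (8.53%). The authors' deposited table gives 6 of the 249 (2.41%) an FDR under 0.05, against 3.82% of all events tested. The smallest edgeR p belonged to a skipped exon of MRPL33 (chr2:27774424-27774530, plus strand). Its inclusion level was 0.656, 0.648 and 0.668 in DMSO replicates 1 to 3 and 0.555, 0.536 and 0.580 with palbociclib, so the groups were apart by more than their spread. The edgeR p was 0.000227, adjusted to 0.0613, and the FDR in the authors' deposited table is 0.00213. MRPL33 RNA as a whole was at 78.0 ± 2.81 and 83.8 ± 8.14 FPKM (limma adjusted p 0.261). Another 2 events with an FDR under 0.05 in the authors' deposited table were chosen after their values were seen. A short exon of RPS24 (chr10:78040204-78040225), a gene known for tissue-specific ends of its protein, in the event read most deeply for it (mean 14166 reads per library), was included at 0.0990 ± 0.0178 with DMSO and 0.128 ± 0.0121 with palbociclib (edgeR adjusted p 0.098), with overlapping groups. An exon of MRPL55 (chr1:228107977-228108137, minus strand) went from 0.033 ± 0.0044 to 0.0658 ± 0.0175 (edgeR adjusted p 0.156), and the groups did not overlap.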

How the data were processed

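Per the labels, poly(A) RNA was sequenced and ATAC-seq was done in 3 libraries per treatment. Per the submitters' processing notes, RNA reads were processed with fastp 0.23.2, Salmon 1.10.2, STAR 2.7.10b and DESeq2 1.44.0, and ATAC reads with Bowtie2 2.5.4-6, Picard 3.4.0-0 and MACS3 3.0.3-0, on GRCh38. The authors deposited FPKM per library, whose read depth is unknown here. The authors' deposited comparison table gives a mean normalized count per gene, a signal averaged over libraries. The same deposited table gives the authors' log2 fold change and its error, computed per gene between the treatments, with a test score and p-values. The deposited splicing tables give reads per form, an inclusion difference (a score from -1 to 1) and p-values. ATAC reads per peak are deposited counts, made with featureCounts 2.0.6 per the file headers.

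From these, log2(FPKM + 1) of genes with a mean of at least 0.5 FPKM was fitted with limma 3.58.1 (R 4.3.3, trend on) over all genes with Benjamini-Hochberg adjustment. Such changes understate those of low genes. ATAC counts and splicing reads were tested with edgeR 4.0.16 (TMM for ATAC), with DESeq2 1.42.0 as an alternative for peaks. A peak was given to a start within 1000 bases. Paralog ratios had an exact permutation test. The scripts were tested on simulated data. Alternatives were another pseudocount (0.1 FPKM), other filters, scaling, no trend, the replicate block and leaving out each library. Depth in peaks ran from 12830062 to 18250496 counts.

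The members and lists were chosen with earlier results of these data known. Named were, per subunit class, the 4 largest called rises and falls and the most abundant gene, then paralog pairs, genes of taught roles, any log2 change over 1, the 3 largest called changes per companion list, the 3 treatment-check genes, and called peaks or else the event of smallest p. The labels do not say that equal replicate numbers pair samples, and the main fits did not pair them. Correlations of the deviations are given with the alternatives. Some items of the companion lists are not reported here. P-values set the difference between groups against the spread between these libraries. The RNA labels do not say whether that spread is one between separate cultures.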

Additional observations from a re-analysis of the deposited data

How the results depend on the processing

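The calls of 22 of 52 named genes were the same in all 14 alternatives of the RNA fit. Quantile normalization gave 23 cytosolic rises and 14 falls (median 0.024), with 15 rises in the large subunit (median 0.036) and 9 falls in the small subunit (median -0.034), and 13 mitochondrial rises (median -0.0051), 7 in the large (median -0.0074) and 6 in the small subunit (median -0.0025). It turned the log2 changes of RPS27 (-0.13), RPL36AL (0.0010), RPL7 (-0.030), RPL39 (-0.022) and MRPS12 (0.086). A common total gave 16 cytosolic rises and 12 falls (median 0.025), with 12 rises in the large subunit (median 0.040) and 4 rises and 6 falls in the small (median -0.0084), and 1 mitochondrial rise and 44 falls (median -0.13), with 0 rises and 26 falls in the large subunit (median -0.13) and 18 falls in the small (median -0.13). It turned RPL36A (-0.0072), MRPL45 (-0.017) and MRPS5 (-0.023). Over all genes, 28.9% rose and 18.0% fell after quantile normalization, and 14.1% and 30.6% with a common total. Without the trend there were 27 cytosolic rises and 4 falls, 19 rises in the large and 1 fall in the small subunit, and 2 mitochondrial rises, 1 of them in the large subunit. Over all genes 20.2% rose and 22.1% fell in that fit. The cause of these shifts was not tested.

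With 1 library left out, rises and falls ranged from 26 to 47 and 4 to 8 (cytosolic), 17 to 33 and 3 to 4 (cytosolic large), 8 to 14 and 1 to 4 (cytosolic small), 1 to 8 and 21 to 23 (mitochondrial), 0 to 7 and 13 to 14 (mitochondrial large) and 1 to 1 and 8 to 9 (mitochondrial small). Their medians ranged from 0.087 to 0.12, 0.10 to 0.14, 0.055 to 0.096, -0.072 to -0.039, -0.080 to -0.039 and -0.069 to -0.033. Over all genes, 17.0% to 19.3% rose and 19.8% to 21.2% fell in these fits. The changes of 5 uncalled genes crossed 0 in some of these: RPLP2 ranged from -0.051 to 0.011, MRPS12 from -0.037 to 0.045, RPLP0 from -0.033 to 0.00029, RPL36AL from -0.041 to 0.0017 and FAU from -0.060 to 0.013. Values above 0 came without DMSO replicate 2 or palbociclib replicate 1 or 3: RPLP2 (0.0032, 0.0027 and 0.011), MRPS12 (0.045, 0.013 and 0.021), RPLP0 (0.00029 without palbociclib replicate 1), RPL36AL (0.0017) and FAU (0.013) without palbociclib replicate 3. Peaks at cytosolic starts numbered 0 to 0 more open and 1 to 2 less open (median -0.087 to -0.052), and at mitochondrial starts 0 to 1 and 2 to 4 (median -0.040 to -0.016). Events with higher and lower inclusion numbered 0 to 2 and 0 to 1 (cytosolic) and 0 to 1 and 0 to 0 (mitochondrial).

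With library totals, 1 cytosolic and 2 mitochondrial peaks were more open and the mitochondrial median was 0.011. DESeq2 gave 0 mitochondrial peaks more open. Without the filter on the minor form 1 cytosolic event had lower inclusion, and with at least 50 reads 1 mitochondrial event did. Same-number libraries had correlations of 0.11, -0.0051 and 0.088 (RNA) and 0.0052, 0.039 and -0.025 (ATAC). Libraries of different number had -0.14 to 0.051 (RNA) and -0.066 to 0.057 (ATAC). With 3 libraries per group these values cannot show whether the numbers pair libraries. With the replicate block there were 33 cytosolic rises and 7 falls, and 3 mitochondrial rises and 26 falls, against 21.0% and 22.9% of all genes. With it, 0 and 1 peaks were more and less open at cytosolic and 1 and 4 at mitochondrial starts. The same block gave 3 cytosolic events with higher inclusion and 1 mitochondrial event each way. For the block and the other alternatives, the shares of all peaks and of all events called were not computed. Their peak and event counts therefore have no background here. FPKM carries no depth, so no counting interval could be given, and 3 libraries against 3 limit every exact test to 0.1.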
